A study of Mus musculus with 4 samples.

Results

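The matrix metalloproteinases (MMP), the ADAMTS proteases and the tissue inhibitors of metalloproteinases (TIMP) were examined in mouse tumors labelled as expressing or not expressing chemerin. Members were all genes of the deposited table named Mmp, Adamts or Timp followed by a number, and the ADAMTS-like genes were left out. This gave 46 genes of 47729, with 23 MMP, 19 ADAMTS and 4 TIMP genes.

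RNA was sequenced from tumors grown from Lewis lung carcinoma (LLC) cells, a mouse line derived from the C57BL/6 strain. The cells were grafted under the skin of the back of C57BL/6 mice, and tumors were collected on day 5. The LLC group came from cells labelled wild type, while the study's text also describes cells that received an empty vector. The LLC-Chem group came from cells transfected with pEFIN plasmids carrying the murine chemerin sequence in a form that needs no further processing to be active. According to the study, individual clones were collected after antibiotic selection, so that a difference between the groups cannot be told apart from a difference between clones. Each group held 2 libraries, each from a pool of 3 tumors, and both groups share host strain, graft site and day.

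MMPs and ADAMTS enzymes are zinc-dependent proteases that cut the extracellular matrix. MMPs are made as inactive precursors, and several are held at the cell membrane while most are secreted. ADAMTS enzymes carry thrombospondin repeats that bind them to matrix, where they trim proteoglycans, process procollagens or act on microfibrils. TIMPs bind the active site of MMPs, and Timp3 is known to inhibit several ADAMTS enzymes as well. In tumors these genes are expressed by the cancer cells and by host fibroblasts, vessel cells and leukocytes, which a bulk library does not separate. In such libraries fewer cells of a type and less RNA per cell cannot be told apart.

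The values were deposited as RPM, reads scaled to a total of 1000000 per library. The values are multiples of a step shared by all libraries, and a fit to which multiples occur puts the libraries at 28470000 to 33990000 reads and the detection limit used here, 3 reads, at 0.0883 to 0.105 RPM. This limit covers counting error only. Within each group the pools were unlike beyond sampling noise (chi-square per gene 75.6 for LLC and 30.9 for LLC-Chem). Rarres2, the chemerin gene, stood at 102.2 and 98.2 RPM in LLC and at 105.9 and 105.8 RPM in LLC-Chem (log2 fold change 0.08, limma adjusted p = 0.541). A higher level of the transfected gene was thus not detected in the LLC-Chem pools, and its values do not check the labels. For the cells in culture, the study reports chemerin activity in the medium of chemerin-transfected cells and none with the empty vector. That activity was measured on cells carrying the chemerin receptor. The groups are named by their labels throughout. As for the tumor cells, Krt8 and Krt18 were present at 82.8 to 167 RPM, whereas Epcam stayed at or below 0.2 RPM and the lung epithelial factor Nkx2-1 was at 0 in every pool.

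Each of 13694 genes with a mean of 1 RPM or more was compared between the groups by limma's two-sided test on log2(RPM + 0.5), with Benjamini-Hochberg adjustment, and was called at an adjusted p under 0.05. The scale understates the fold changes of genes with low RPM. Of the 46 members, 32 entered the test. The other 14 were under 1 RPM in every pool and are described by level only. No source says whether the pools stand for separate experiments, so the p-values measure the spread between these libraries. An exact permutation test of 1 gene could not go below p = 0.33 with so few pools.

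The MMP and ADAMTS families held calls in both directions, whereas the only TIMP gene called was lower. In LLC-Chem pools 7 members were called higher, beside 9.54% of all genes tested. They were Mmp11, Mmp14, Mmp19, Adamts1, Adamts4, Adamts10 and Adamts14. Another 11 were called lower, beside 13.5% of all genes tested, namely Mmp2, Mmp8, Mmp9, Mmp13, Mmp15, Mmp27, Adamts2, Adamts5, Adamts9, Adamts12 and Timp1. The other 14 tested members did not pass the threshold. The median log2 fold change was -0.91 over the 32 tested members, with 13 positive values, against -0.04 over all genes tested. By family the medians were -1.14 for 15 MMP genes, -0.18 for 14 ADAMTS genes and -1.56 for 3 TIMP genes.

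Both LLC-Chem pools lay above both LLC pools for 8 members, an order held by 33.1% of all genes tested. Both lay below for 18 members, against 39.3% of all genes tested, and the pools of the groups overlapped for 6. The LLC pools of a member differed by a median factor of 1.40, with 13 of 32 members over 1.5, and the LLC-Chem pools by 1.29, with 8 of 32 over 1.5. No call among the genes tested, members included, held when any single pool was left out, which leaves 1 pool in a group. At an unadjusted p under 0.05 with all 4 pools, 8 members were higher and 17 lower, beside 18% and 23.4% of all genes tested, and with 1 pool left out 6 to 9 were higher and 8 to 16 lower, beside 7.29% to 17.2% and 11.5% to 20.6% of all genes.

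**Figure D1:**
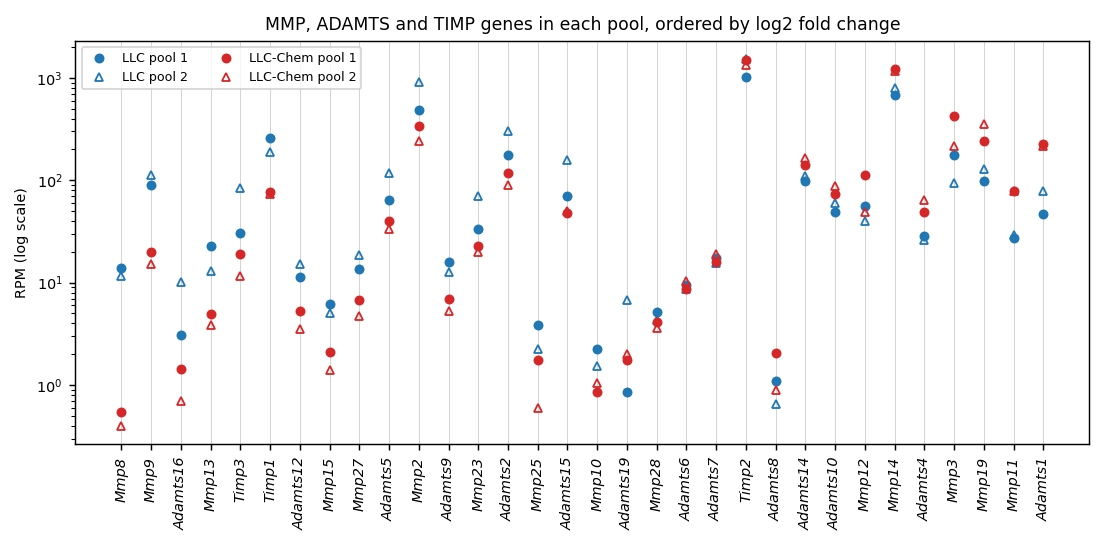
RPM of the 32 tested members on a log axis, 1 column per gene, ordered by log2 fold change from Mmp8 to Adamts1. Blue symbols are the LLC pools and red symbols the LLC-Chem pools, with a filled circle for pool 1 and an open triangle for pool 2; the groups are far apart for Mmp8 (11.5 and 13.8 RPM against 0.4 and 0.55 RPM) and overlap for 6 genes.

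Both gelatinases, which cut denatured collagen and the type IV collagen of basement membranes, were lower in LLC-Chem tumors. Mmp9 (chromosome 2, ENSMUSG00000017737) measured 89.1 and 112 RPM in LLC and 19.9 and 15.2 RPM in LLC-Chem. Its LLC-Chem mean was 17.5% of the LLC mean, with a log2 fold change of -2.49 (standard error 0.18, limma adjusted p = 0.00665). Mmp2 (chromosome 8, ENSMUSG00000031740) measured 490 and 911 RPM in LLC and 340 and 240.5 RPM in LLC-Chem. The groups did not overlap, but the LLC pools differed from each other by a factor of 1.86. The log2 fold change of Mmp2 was -1.22 (standard error 0.32, limma adjusted p = 0.0477), and it was -0.78 without LLC pool 2. The Mmp2 call lay at the threshold and was made in 5 of 12 settings that keep all 4 pools (the pseudocounts, filters, scalings, blocks and tests named under the processing), and edgeR's quasi-likelihood test on the recovered reads gave an adjusted p of 0.0560.

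The collagenases open the triple helix of fibrillar collagens, and both that were measurable were lower. Mmp8, the collagenase stored in neutrophil granules, measured 13.8 and 11.5 RPM in LLC and 0.55 and 0.40 RPM in LLC-Chem. These are 17 and 12 recovered reads in the LLC-Chem pools, above the 3-read limit, and the LLC mean was 26.7-fold higher. With a log2 fold change of -3.75 (standard error 0.22, limma adjusted p = 0.00577), Mmp8 had the largest change of the 32 members. Mmp13, which in mice takes much of the role that MMP1 has in humans, measured 22.7 and 12.9 RPM in LLC and 4.95 and 3.85 RPM in LLC-Chem. It fell by 1.86 on the log2 scale (standard error 0.30, limma adjusted p = 0.0183). Mmp1a and Mmp1b, the mouse genes related to human MMP1, lay between 0.05 and 0.15 RPM in every pool.

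Markers of neutrophils moved with Mmp8 and Mmp9. Of the 5 neutrophil markers, 4 were tested and S100a8, S100a9 and Csf3r were called lower, while Cxcr2 was not (11.7 and 5.55 against 2.90 and 0.75 RPM). Retnlg was not tested and measured 0.25 to 2.20 RPM. The summed level of the list was 183 and 111 RPM in LLC and 42.9 and 17.4 RPM in LLC-Chem, and none of the markers was at 0. Lcn2, a neutrophil granule protein that binds MMP9, measured 57.1 and 16.9 RPM in LLC and 2.40 and 3.15 RPM in LLC-Chem (log2 fold change -3.28, limma adjusted p = 0.0192). Mmp25, the membrane-anchored protease of neutrophils, measured 3.85 and 2.25 RPM in LLC and 1.75 and 0.60 RPM in LLC-Chem (log2 fold change -1.14, limma adjusted p = 0.104). The part of the neutrophil markers in these results was not tested.

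The stromelysins did not move together. Among them, Mmp3 and Mmp10 are proteases of broad specificity that also activate other MMPs. Mmp11, known from stromal cells around carcinomas, varied least between the pools of a group, with 27.6 and 29.0 RPM in LLC and 78.2 and 78.6 RPM in LLC-Chem. Its log2 fold change was 1.45 (standard error 0.10, limma adjusted p = 0.00665). Mmp3 measured 175 and 94.4 RPM in LLC and 430 and 218 RPM in LLC-Chem. Both LLC-Chem pools of Mmp3 lay above both LLC pools, but the pools differed by factors of 1.85 and 1.97 within the groups. The log2 fold change of 1.25 (standard error 0.41) did not pass (limma adjusted p = 0.0757), and was 0.80 without LLC pool 2 and 0.76 without LLC-Chem pool 1. Mmp10, a close relative of Mmp3, measured 2.25 and 1.55 RPM in LLC and 0.85 and 1.05 RPM in LLC-Chem (log2 fold change -0.71, limma adjusted p = 0.101). Of the 50-base words of Mmp10, 8.37% also occur in Mmp3. Read pairs lying wholly in those stretches may not have been assigned to either gene, which was not tested.

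Mmp12, the elastase of macrophages, measured 56.6 and 39.7 RPM in LLC and 112 and 48.9 RPM in LLC-Chem. The groups overlapped, and the log2 fold change of 0.64 had a 95% interval of -0.35 to 1.63 (standard error 0.40, limma adjusted p = 0.268). The log2 fold change was 0.05 without LLC-Chem pool 1 and 1.23 without LLC-Chem pool 2. Of the 5 macrophage markers, Csf1r and Itgam were called lower and Adgre1, Cd68 and Mrc1 were not. Their summed level was 1352 and 1677 RPM in LLC and 1140 and 739 RPM in LLC-Chem. Matrilysin, Mmp7, an epithelial protease, was at or below 0.0999 RPM throughout.

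The membrane-type MMPs also moved apart. Mmp14, which activates the Mmp2 precursor at the cell surface and cuts collagen itself, measured 674 and 799 RPM in LLC and 1233 and 1157 RPM in LLC-Chem. The groups did not overlap, and Mmp14 rose by 0.70 on the log2 scale (standard error 0.15, limma adjusted p = 0.0307), and this call did not hold with a replicate block. Mmp15, its close relative, measured only 6.25 and 5.10 RPM in LLC and 2.10 and 1.40 RPM in LLC-Chem (log2 fold change -1.47, standard error 0.25, limma adjusted p = 0.0202). Mmp16, Mmp17 and Mmp24 stayed at or below 0.85 RPM in every pool. Mmp14 and its substrate Mmp2 were thus called in opposite directions.

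Among the remaining MMPs, Mmp19, which cuts basement membrane proteins, measured 98.6 and 130 RPM in LLC and 241 and 354 RPM in LLC-Chem. Its log2 fold change was 1.36 (standard error 0.22, limma adjusted p = 0.0185). Of the exon bases of Mmp19, 28.3% lie under exons of Gm47093 and Tmem198b, where counting without strand can drop reads or exchange them. Mmp27 measured 13.7 and 18.5 RPM in LLC and 6.80 and 4.70 RPM in LLC-Chem (log2 fold change -1.42, standard error 0.25, limma adjusted p = 0.0209). Mmp23 measured 33.4 and 70.0 RPM in LLC and 22.8 and 19.9 RPM in LLC-Chem. The LLC pools of Mmp23 differed by a factor of 2.09, and its log2 fold change of -1.16 (standard error 0.34) did not pass (limma adjusted p = 0.0586). Without LLC pool 2 it was -0.64, and DESeq2 called Mmp23 (adjusted p = 0.00296). Mmp28 lay between 3.65 and 5.20 RPM, with a log2 fold change of -0.26 (limma adjusted p = 0.369). Mmp20, the enamel protease, had at most 0.05 RPM, and Mmp21 was at 0 in all 4 pools.

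**Figure D2:**
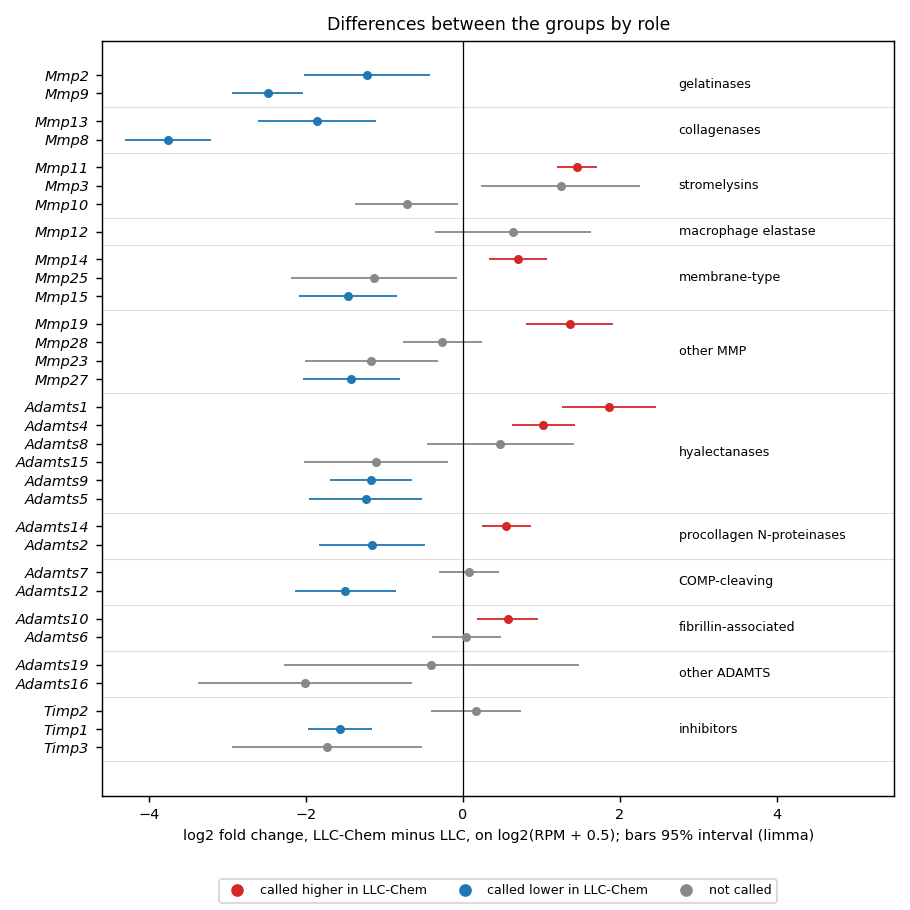
Log2 fold change, LLC-Chem minus LLC on the log2(RPM + 0.5) scale, of the 32 tested members grouped by role, with 95% intervals from limma. Red marks members called higher, blue members called lower and grey members not called; gelatinases and collagenases lie to the left of 0, from -3.75 for Mmp8 to -1.22 for Mmp2, while stromelysins, membrane-type MMPs and hyalectanases lie on both sides.

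Of the 23 MMP genes, 10 lie side by side on chromosome 9 of GRCm38, from 7272514 to 7699585, over 427 kb. In order of position they are Mmp13, Mmp12, Mmp1b, Mmp3, Mmp1a, Mmp10, Mmp8, Mmp27, Mmp20 and Mmp7. Only 6 of them were tested, and 3 were called lower (Mmp13, Mmp8 and Mmp27) and 0 higher, beside 13.5% and 9.54% of all genes tested. At an unadjusted p under 0.05, Mmp10 was lower too and Mmp3 higher. Mmp3, the highest of the 10 genes in RPM per kb of exon in every pool, had both LLC-Chem pools above both LLC pools but was not called. Mmp8 and Mmp27, whose genes are 2.91 kb apart, were both lower, whereas 48.2 kb separate Mmp8 from Mmp10.

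**Figure D3:**
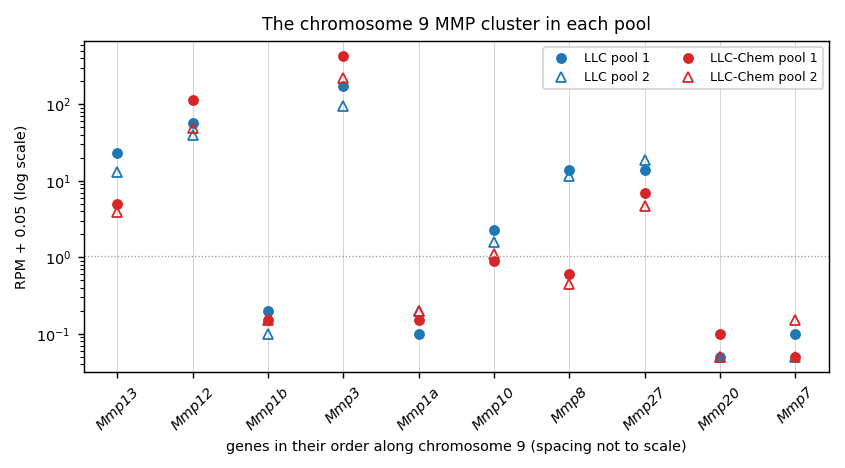
RPM + 0.05 on a log axis for the 10 MMP genes of chromosome 9, in their order along the chromosome with spacing not to scale. Blue is LLC and red LLC-Chem, with circles for pool 1 and triangles for pool 2, and the dotted line marks 1 RPM; Mmp3 is at 94.4 to 430 RPM, Mmp8 goes from 11.5 and 13.8 down to 0.4 and 0.55 RPM, and Mmp1b, Mmp1a, Mmp20 and Mmp7 lie near the 3-read limit.

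The genes of the cluster are known for promoters that carry a TATA box and a site for AP-1, the Fos and Jun factor through which growth factors and cytokines act on MMP genes. RefSeq promoters of GRCm38.p6 were found for 32 of the 46 members, and none for Mmp2, Mmp9, Mmp16, Mmp17, Mmp19, Adamts4, Adamts5, Adamts6, Adamts7, Adamts8, Adamts10, Adamts15, Adamts16 and Adamts19. The 250 bases before each start were searched on both strands for 3 short motifs. AP-1 was searched as TGANTCA. The TATA box was searched as TATAAA. The core of the hypoxia response element was searched as ACGTG. The AP-1 letters stood in 8 of the 10 genes of the cluster, all but Mmp8 and Mmp27, and in 0 of the other 22 member genes, while 6.75% of 32851 RefSeq promoters hold them. The TATA letters stood in 7 of the 10 genes and 2 of the other 22, and in 12.4% of all promoters. A match is a description of the letters in this window, not a binding site.

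The 100 bases before the start of 6 genes of the cluster are shown because they place the 3 genes called lower beside 3 that were not. All are on the plus strand of chromosome 9 of GRCm38.p6, at chr9:7272414-7272513 for Mmp13, chr9:7347274-7347373 for Mmp12 (the second of 2 RefSeq starts), chr9:7445722-7445821 for Mmp3, chr9:7502242-7502341 for Mmp10, chr9:7558329-7558428 for Mmp8 and chr9:7571296-7571395 for Mmp27. Capitals mark the AP-1 and TATA letters.
Mmp13: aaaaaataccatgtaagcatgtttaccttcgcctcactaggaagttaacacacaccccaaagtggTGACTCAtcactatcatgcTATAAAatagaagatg
Mmp12: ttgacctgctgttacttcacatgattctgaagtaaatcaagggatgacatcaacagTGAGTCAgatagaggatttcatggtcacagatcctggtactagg
Mmp3: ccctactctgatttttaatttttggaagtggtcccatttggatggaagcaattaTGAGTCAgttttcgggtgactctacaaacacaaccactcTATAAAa
Mmp10: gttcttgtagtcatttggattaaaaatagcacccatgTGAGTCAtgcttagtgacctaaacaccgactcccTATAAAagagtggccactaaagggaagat
Mmp8: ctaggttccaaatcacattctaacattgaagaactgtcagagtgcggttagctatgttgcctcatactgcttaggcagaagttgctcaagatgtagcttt
Mmp27: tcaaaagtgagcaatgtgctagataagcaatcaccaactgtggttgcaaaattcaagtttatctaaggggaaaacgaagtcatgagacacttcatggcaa
Of the 4 genes shown with the AP-1 letters, Mmp13 was called lower and Mmp12, Mmp3 and Mmp10 were not called. Mmp8 and Mmp27, which hold neither motif, were both called lower. No test was run on the motifs and the calls. Of the Fos, Jun, Ets and Runx family genes known to act on MMP promoters, 10 were tested. Of these, 1 was called higher and 1 lower, beside 9.54% and 13.5% of all genes tested. Fosl2 was called higher (149 and 133 against 179 and 199 RPM, limma adjusted p = 0.0475) and Etv4 lower (73.7 and 55.9 against 28.7 and 25.7 RPM, limma adjusted p = 0.0136). Fos, Fosl1, Jun, Junb, Ets1, Ets2, Etv5 and Runx2 were not called.

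The 22 members with a promoter outside the cluster lack the AP-1 letters in this window. As examples, the same stretch is shown for 3 genes called higher and for Timp1, called lower. They lie on GRCm38.p6 at chr10:75932503-75932602 (Mmp11, minus strand), chr14:54431498-54431597 (Mmp14, plus strand), chr16:85803114-85803213 (Adamts1, minus strand) and chrX:20870066-20870165 (Timp1, plus strand). Capitals mark TATAAA in Adamts1 and ACGTG, or CACGT on the other strand, in Mmp14 and Timp1.
Mmp11: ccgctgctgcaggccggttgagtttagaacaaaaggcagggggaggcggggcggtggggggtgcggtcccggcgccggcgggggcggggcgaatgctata
Mmp14: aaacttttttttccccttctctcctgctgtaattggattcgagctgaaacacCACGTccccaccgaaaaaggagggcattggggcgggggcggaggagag
Adamts1: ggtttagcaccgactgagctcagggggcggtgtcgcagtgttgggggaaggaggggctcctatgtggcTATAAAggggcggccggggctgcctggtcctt
Timp1: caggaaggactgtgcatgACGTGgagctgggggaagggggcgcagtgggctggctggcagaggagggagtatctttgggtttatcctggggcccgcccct
G and C make up 54% to 72% of these 4 stretches and 38% to 42% of the 6 from the cluster. The hypoxia core letters stood in 7 of the 32 member genes with a promoter, Mmp7, Mmp14, Adamts3, Adamts17, Adamts18, Adamts20 and Timp1, and in 16.6% of all promoters. Of these, only Mmp14 and Timp1 were tested, and they were called in opposite directions.

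Among the ADAMTS genes, the hyalectanases cut aggrecan, versican and related proteoglycans. Adamts1 had the largest rise of all 32 tested members. It measured 46.8 and 78.4 RPM in LLC and 227 and 216 RPM in LLC-Chem, a 3.54-fold higher mean (log2 fold change 1.86, standard error 0.24, limma adjusted p = 0.0133). Adamts1 is known both as a versican-cutting enzyme and as an inhibitor of vessel growth. Adamts4, a main aggrecanase, measured 28.6 and 26.1 RPM in LLC and 49.1 and 64.3 RPM in LLC-Chem (log2 fold change 1.03, standard error 0.16, limma adjusted p = 0.0169).

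Of the other hyalectanases, Adamts5 and Adamts9 were called lower. Adamts5, the main aggrecanase of mouse cartilage, measured 63.9 and 118 RPM in LLC and 40.1 and 33.1 RPM in LLC-Chem. It fell by 1.24 on the log2 scale (standard error 0.29, limma adjusted p = 0.0373), and by 0.80 without LLC pool 2. The Adamts5 call was lost in eBayes without trend (limma adjusted p = 0.0642) and with the replicate number as a block. Adamts1 and Adamts5 are neighbours on chromosome 16, 53.1 kb apart, and were called in opposite directions. Adamts9 is a versican-cutting enzyme also known as an inhibitor of vessel growth. It measured 15.8 and 12.8 RPM in LLC and 6.95 and 5.25 RPM in LLC-Chem (log2 fold change -1.17, standard error 0.21, limma adjusted p = 0.0223). For Adamts9, 11.99% of exon bases lie under exons of A730049H05Rik and Gm15737. Adamts15 measured 69.6 and 159 RPM in LLC and 47.7 and 49.9 RPM in LLC-Chem. Its LLC pools differed by a factor of 2.29, and the log2 fold change of -1.10 (standard error 0.37) did not pass (limma adjusted p = 0.0808). Without LLC pool 2 it was -0.51, and DESeq2 called Adamts15 (adjusted p = 0.00537). Adamts8, 20.1 kb from Adamts15 on chromosome 9, lay between 0.65 and 2.05 RPM with overlapping groups (log2 fold change 0.48, limma adjusted p = 0.370), and Adamts20 did not exceed 0.30 RPM.

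The procollagen N-proteinases remove the amino-terminal propeptide of fibrillar procollagens. Adamts2 and Adamts14 share this role and were called in opposite directions. Adamts2 measured 176 and 300 RPM in LLC and 117 and 90.4 RPM in LLC-Chem (log2 fold change -1.16, standard error 0.27, limma adjusted p = 0.0370), and its log2 fold change was -0.77 without LLC pool 2. Adamts14 measured 97.8 and 110 RPM in LLC and 140 and 165 RPM in LLC-Chem (log2 fold change 0.56, standard error 0.12, limma adjusted p = 0.0340). Per kb of exon, Adamts2 was at 18.9 and 32.2 RPM and Adamts14 at 18.8 and 21.1 RPM in the LLC pools. In the LLC-Chem pools Adamts2 was at 12.5 and 9.68 RPM per kb, below Adamts14 at 27.0 and 31.8 RPM per kb. Both calls were lost in eBayes without trend (adjusted p = 0.0647 for Adamts2 and 0.0659 for Adamts14, limma) and with the replicate number as a block. The third enzyme, Adamts3, lay between 0.40 and 0.75 RPM.

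Fibroblasts are a known source of Mmp2, Mmp14 and Adamts2, and fibroblast markers did not move as a block. Of the 5 markers, Col1a1 and Col1a2 were called lower, Pdgfra was called higher, and Dcn and Lum were not called. Their summed level was 11800 and 20339 RPM in LLC and 8559 and 6870 RPM in LLC-Chem. Most of that sum is Col1a1 and Col1a2, which like Mmp2, Mmp23, Adamts2, Adamts5, Adamts15 and Timp3 were highest in LLC pool 2. Pdgfra, Dcn and Lum went the other way, with both LLC-Chem pools above both LLC pools and the highest value in LLC-Chem pool 1. The part of the fibroblast markers in these results was not tested.

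Adamts7 and Adamts12 cut cartilage oligomeric matrix protein (COMP), and only Adamts12 was called. Adamts12 measured 11.3 and 15.1 RPM in LLC and 5.30 and 3.50 RPM in LLC-Chem (log2 fold change -1.50, standard error 0.26, limma adjusted p = 0.0207). Adamts7 measured 17.3 and 15.7 RPM in LLC and 15.9 and 19.0 RPM in LLC-Chem, with a log2 fold change of 0.08 and a 95% interval of -0.31 to 0.47 (standard error 0.16, limma adjusted p = 0.724). Of the fibrillin-associated enzymes, Adamts10 measured 48.7 and 60.1 RPM in LLC and 73.2 and 89.0 RPM in LLC-Chem. Its log2 fold change of 0.57 (standard error 0.15) passed by the smallest margin of all members called (limma adjusted p = 0.0499), and the call was made in 4 of 12 settings. Adamts6, its close relative, lay between 8.60 and 10.3 RPM (log2 fold change 0.04, 95% interval -0.40 to 0.48, limma adjusted p = 0.867).

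The remaining ADAMTS genes were low. Adamts16 measured 3.10 and 10.04 RPM in LLC and 1.45 and 0.70 RPM in LLC-Chem (log2 fold change -2.01, standard error 0.55, limma adjusted p = 0.0508). Without LLC pool 2 the log2 fold change of Adamts16 was -1.23 and without LLC pool 1 it was -2.79, and Adamts16 was called with a pseudocount of 0.1 (limma adjusted p = 0.0485) and by DESeq2 (adjusted p = 0.000913). Adamts19 showed the widest spread within a group of all 32 members, at 0.85 and 6.75 RPM in LLC against 1.75 and 2.00 RPM in LLC-Chem (log2 fold change -0.40, limma adjusted p = 0.712). Its direction was set by LLC pool 2, without which the log2 fold change was 0.81. Adamts13, the protease of von Willebrand factor, and Adamts17 and Adamts18 did not exceed 0.45 RPM.

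The inhibitors differed from each other. Timp1 (chromosome X, ENSMUSG00000001131), an inducible secreted inhibitor, measured 261 and 190 RPM in LLC and 76.1 and 74.3 RPM in LLC-Chem. Its LLC-Chem mean was 33.3% of the LLC mean (log2 fold change -1.56, standard error 0.16, limma adjusted p = 0.0114). Timp2, which besides inhibiting MMPs links the Mmp2 precursor to Mmp14 at the cell surface, measured 1031 and 1529 RPM in LLC and 1512 and 1323 RPM in LLC-Chem. The groups of Timp2 overlapped, with a log2 fold change of 0.17 and a 95% interval of -0.40 to 0.74 (standard error 0.23, limma adjusted p = 0.597). Timp3, the inhibitor bound to matrix, measured 30.8 and 83.2 RPM in LLC and 19.0 and 11.7 RPM in LLC-Chem. Both LLC-Chem pools of Timp3 were lower, but the LLC pools differed by a factor of 2.70 and the log2 fold change of -1.73 (standard error 0.48) did not pass (limma adjusted p = 0.0540). It was -1.02 without LLC pool 2 and -2.44 without LLC pool 1, and DESeq2 on the recovered reads called Timp3 (adjusted p = 0.0464). Of the exon bases of Timp3, 21.3% lie under exons of Syn3. Timp4 was at 0 in every pool.

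To compare genes with each other, RPM were divided by the summed exon length. Timp2 had the highest mean of the 46 members in both groups, at 329 RPM per kb in LLC and 364 RPM per kb in LLC-Chem. In LLC it was followed by Timp1 (254 RPM per kb), Mmp2 (208), Mmp14 (124) and Mmp3 (74.8). In the single LLC pools Timp1 was above Timp2 in pool 1 (294 against 265 RPM per kb) and below it in pool 2 (214 against 392), so these neighbours did not differ beyond their spread. Timp1 and Mmp2 changed order too, with Mmp2 at 145 RPM per kb in pool 1 and 270.1 RPM per kb in pool 2. In LLC-Chem the order after Timp2 was Mmp14 (201 RPM per kb), Mmp3 (180), Mmp2 (86.1), Timp1 (84.7) and Mmp19 (84.2). Mmp14 and Mmp3 overlapped between pools, and so did the last 3.

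As shares of the family sum of RPM per kb, Mmp2 made up 31.2% and 45.6% of the MMP genes in the LLC pools and 14.8% and 13.2% in the LLC-Chem pools. Mmp14 made up 24.3% and 22.6% in LLC and 30.4% and 35.9% in LLC-Chem, and Mmp19 went from 5.99% and 6.21% to 10.03% and 18.5%. Mmp9 went from 5.40% and 5.34% to 0.827% and 0.794%. Mmp3 went from 20.8% and 8.85% to 35.0% and 22.4%, and had the largest share of the MMP genes in LLC-Chem pool 1. The groups did not overlap for any of these 5 shares. In RPM, 33.1% of all genes tested had both LLC-Chem pools above both LLC pools, and 39.3% had both below. The MMP sum itself overlapped, at 466 and 593 RPM per kb in LLC and 681 and 540 RPM per kb in LLC-Chem.

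In the ADAMTS family Adamts1 made up 11.3% and 12.8% of the sum in LLC and 37.1% and 34.0% in LLC-Chem, where it was the leading member. Adamts2 went from 24.2% and 27.9% to 10.9% and 8.07%. The ADAMTS sums were 78.0 and 115 RPM per kb in LLC and 115 and 120 RPM per kb in LLC-Chem. Among the inhibitors, Timp1 made up 52.2% and 34.7% in LLC and 18.0% and 19.7% in LLC-Chem, and Timp2 the greater part of the rest. The TIMP sums were 562 and 617 RPM per kb in LLC and 476 and 425 RPM per kb in LLC-Chem, without overlap. Shares of a sum are not independent of each other, and no test was run on them.

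**Figure D4:**
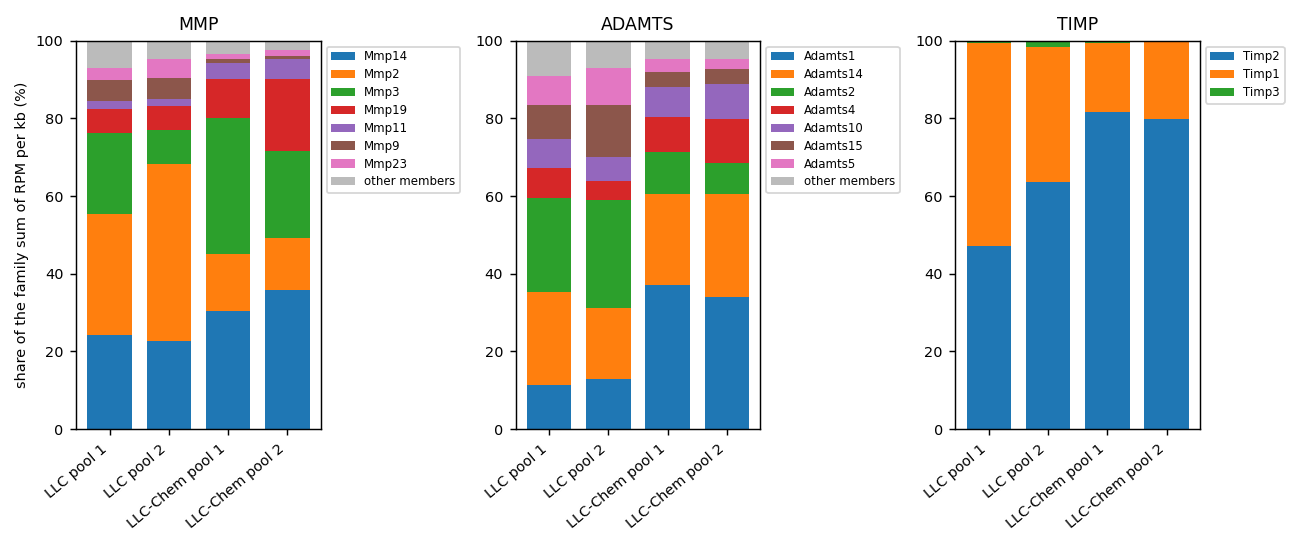
Share of each gene in the family sum of RPM per kb of exon (%), stacked to 100% for each of the 4 pools, with the MMP, ADAMTS and TIMP families side by side. Mmp2 takes 31.2% and 45.6% of the MMP sum in the LLC pools and 14.8% and 13.2% in the LLC-Chem pools, Adamts1 goes from 11.3% and 12.8% to 37.1% and 34.0% of the ADAMTS sum, and Timp1 from 52.2% and 34.7% to 18.0% and 19.7% of the TIMP sum.

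Other genes of the pathway were read from fixed lists. Of 16 genes for activation, cell surface binding and clearance, 14 were tested, 0 were called higher and 5 lower, beside 9.54% and 13.5% of all genes tested. Plau, the urokinase that starts the plasmin cascade, measured 199 and 177 RPM in LLC and 135 and 105 RPM in LLC-Chem (log2 fold change -0.65, limma adjusted p = 0.0359), and its receptor Plaur measured 119 and 85.6 RPM in LLC and 65.9 and 59.6 RPM in LLC-Chem (log2 fold change -0.68, limma adjusted p = 0.0447). The proprotein convertase Pcsk5 measured 34.6 and 52.3 RPM in LLC and 8.945 and 8.995 RPM in LLC-Chem (log2 fold change -2.19, limma adjusted p = 0.0101). Furin, the convertase that activates membrane-type MMPs, lay between 176 and 200 RPM (log2 fold change 0.05, limma adjusted p = 0.746). Tfpi2, a protease inhibitor of the matrix, and Lcn2 were the other genes called lower. Bsg, which induces MMPs, Reck, which inhibits them at the membrane, and Lrp1, which clears them, were not called, and neither were Pcsk6, Cd44, Cd63, Thbs1 and Thbs2. Of 6 ADAMTS-like genes, which lack the protease domain, 5 were tested and only Adamtsl3 was called, at 40.5 and 35.9 RPM in LLC and 52.0 and 59.6 RPM in LLC-Chem (limma adjusted p = 0.0369).

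Of 15 substrates, 11 were tested, 2 were called higher and 3 lower, beside 9.54% and 13.5% of all genes tested. Versican (Vcan), which Adamts1, Adamts4, Adamts5 and Adamts9 cut, measured 256 and 282 RPM in LLC and 461 and 480 RPM in LLC-Chem (log2 fold change 0.80, limma adjusted p = 0.0141). Col4a2, a basement membrane collagen that gelatinases cut, was called higher with a log2 fold change of 0.45 (limma adjusted p = 0.0468), and Col4a1 was not called (0.27, limma adjusted p = 0.156). Col1a1 and Col1a2, the chains of type I collagen, which Adamts2 processes, were lower by log2 fold changes of -1.51 and -1.46 (limma adjusted p = 0.0334 and 0.0383). Vwf, the substrate of Adamts13, fell by 1.47 on the log2 scale (limma adjusted p = 0.0146). Col3a1, Dcn, Eln, Fbn1 and Fn1 were not called, and Acan, Bcan, Ncan and Comp were under the limit for testing. Col1a1, Col1a2 and Dcn are also among the fibroblast markers.

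Markers of other host cells moved with the groups too. Beside these and the neutrophil, macrophage and fibroblast markers above, 13.5% of all genes tested were called lower and 9.54% higher. Of the endothelial markers 4 of 5 were called lower, with a summed level of 199 and 175 RPM in LLC and 57.2 and 33.9 RPM in LLC-Chem. All 4 mural cell markers were lower, from 217 and 183 RPM to 61.1 and 40.3 RPM. The 2 tested T and NK cell markers of 4 were lower, from 11.6 and 9.24 RPM to 1.10 and 0.50 RPM for the list. Of 4 adipocyte markers 3 were tested and Cfd was higher, with sums of 28.0 and 19.99 RPM in LLC and 39.7 and 14.2 RPM in LLC-Chem. Neither the tested keratinocyte marker of 4 (list sums 2.90 and 4.45 against 2.10 and 2.10 RPM) nor the 3 tested carcinoma markers of 5 (311 and 279 against 265 and 198 RPM) were called. No skeletal muscle marker and no lung epithelium marker was tested, with sums of at most 1.35 and 0.25 RPM, and Ckm, Myh4 and Nkx2-1 were at 0 in every pool. How much of the change of any member goes with these cell types was not tested.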

How the data were processed

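RNA-seq libraries of 4 tumor pools (2 LLC, 2 LLC-Chem) were analysed. Paired-end reads had been aligned by the authors with STAR (GRCm38.p4/mm10), assigned to the genes of Ensembl 84 with HTSeq, and deposited as RPM for 47729 genes. Tool versions and the strand setting are not given in the sources used here. The deposited RPM were whole multiples of 1 step in 100% of values (tolerance 0.0001 RPM), which fits a scaling to 20000000 reads with rounding up. Library totals were fitted from the multiples of the step that occur, and reads were recovered to within 1 read.

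The labels gave the group and number of each pool. The test was limma 3.58.1 (R 4.3.3) on log2(RPM + 0.5), by lmFit and eBayes with trend, two-sided, and p-values of the 13694 genes whose mean reached 1 RPM were adjusted by Benjamini-Hochberg. Tested on simulated data for this comparison with 13623 genes, limma called 81 of 97 genes changed by a log2 fold of 1. It called 97 of 97 changed by 2, and 3.78% of its 185 calls were unchanged genes. The simulation changed 200 genes before the filter and gave every gene the same spread. That spread was not fitted to these pools, so the rates need not hold for the members. The alternatives were pseudocounts of 0.1 and 1, all genes above 0, a mean of at least 0.2 RPM, TMM and median-of-ratios scaling, eBayes without trend, the replicate number as a block, edgeR 4.0.16 and DESeq2 1.42.0 on the recovered reads, and leaving out each pool. A block with crossed numbers was added after seeing the data.

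Members, role groups, pathway genes and markers were chosen with earlier results of these data known, so no set test was run. Every member may be named. Members called, or with a mean of at least 10 RPM, are given with all pool values, log2 fold change, standard error and adjusted p. Other tested members are given by pool values or their range, with the log2 fold change and adjusted p, and members under 1 RPM by level only. GENCODE M21 (GRCm38), in which 98.94% of the identifiers were found, gave positions and exon lengths, and promoter sequences came from RefSeq on GRCm38.p6. Python 3.11.15 with pandas 2.3.3, numpy 2.4.6 and, for figures, matplotlib 3.10.9 was used.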

Additional observations from a re-analysis of the deposited data

How the results depend on the processing

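Over 7 alternatives (both pseudocounts, a mean of at least 0.2 RPM, both scalings, eBayes without trend and edgeR), 5 to 7 members were called higher and 8 to 12 lower, against 7 and 11. Over all genes tested the shares in these settings were 6.51% to 11.6% higher and 9.28% to 13.4% lower. DESeq2 called 7 and 15 members, beside 13.7% and 16.6% of all genes, and added Mmp23, Adamts15, Adamts16 and Timp3. Mmp8, Mmp9, Mmp11, Mmp13, Mmp15, Mmp19, Mmp27, Adamts1, Adamts4, Adamts9, Adamts12 and Timp1 were called in 11 of 12 settings. The exception was the test of all genes above 0, which called 0 members higher and 0 lower by limma (7 and 15 of 44 at an unadjusted p under 0.05, beside 12.9% and 15.2% of all genes) and 1 gene of 26260 in all. Leaving out 1 pool gave 0 and 0 in all 4 cases. The cause was not tested. The median log2 fold change of tested members was -0.742 with a pseudocount of 1, -1.08 with edgeR and -1.09 with DESeq2, and ran from -0.914 to -0.572 with 1 pool left out. With 1 pool left out, the log2 fold change changed sign for Adamts19 (-1.61 to 0.81), Adamts6 (-0.08 to 0.17), Adamts7 (-0.05 to 0.20) and Timp2 (-0.11 to 0.46), none of them called.

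The groups share replicate numbers, but the pools are different animals and no source describes a pairing. Across genes, the deviations of same-numbered pools correlated at -0.14. With the replicate number as a block, 6 members were called higher and 8 lower, beside 4.01% and 7.77% of all genes tested, Mmp3 was gained and Mmp2, Mmp14, Adamts2, Adamts5 and Adamts14 were lost. With the numbers crossed, a setting added after seeing the data, 6 members were called higher and 15 lower, beside 11.5% and 16.9% of all genes tested, with the same 4 genes added. The lowest values of the tested members rest on 12 reads or more, and the effect of depth on them was not tested. The 14 members under 1 RPM could not be compared.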
